A study of Mus musculus with 6 samples.

Results

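Skp2, Diras2, B4galt4, Rnf149 and Ogfrl1 are the 5 genes, of 24104 named genes on the array, that the study placed both among the genes lowered by miR-26a and among those raised when miR-26 was sequestered. The study listed genes that were at least 20% lower with miR-26a (unadjusted p under 0.05) or at least 20% higher with the sponge (unadjusted p under 0.1), and called a gene a predicted target where at least 2 of 4 prediction tools named it. The 5 genes passed all of these limits in both comparisons. They were thus selected on their changes against control in both comparisons, and these changes are given here as a description, without a test.

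The RNA came from 1676 cells, an established mouse pre-B cell line that lacks the adaptor proteins SLP-65 and LAT (genotype SLP-65-/- LAT-/-) and grows in interleukin 7. All cells were kept in IL-7 and were selected with puromycin after retroviral transduction. The control cells carried an empty vector, the miR-26a cells a vector for human hsa-miR-26a-2, and the sponge cells a vector whose transcript holds repeated binding sites for miR-26a and miR-26b. Each of the 3 groups was measured on 2 single-colour arrays, 1 from each of 2 experiments with separately made cell clones, and all 6 arrays lay on 1 slide. The control was the empty vector in both comparisons and not a scrambled sponge, so both comparisons share the same 2 control arrays. Each group also had its own column of the slide, so that position and group cannot be told apart. The array reads bulk messenger RNA and not mature miR-26: a lower level in every cell and fewer cells with the RNA cannot be told apart. All 12 pre-B cell markers, such as Vpreb1 and Il7r, were well above background on every array, whereas Cd3g, Ly6g and Ms4a1 were at background on all 6. Of the markers of other cells, 2 of 5 T cell markers, 3 of 6 myeloid markers, 1 of 3 erythroid markers and 2 of 3 mature B cell markers passed that mark on each array. The summed signal of the T cell markers was 1384 to 1403 on control, 1286 to 1436 on miR-26a and 1054 to 1203 on sponge arrays. The sponge range of this sum thus lay below the control range. The summed signal of the myeloid markers was 3530 to 4584 on control, 3796 to 4534 on miR-26a and 2946 to 4383 on sponge arrays. That of the mature B cell markers, mostly Cr2, was 324 to 367, 698 to 786 and 318 to 414. The part of these marker signals in the changes of the 5 genes was not tested. The array sequences of Blnk and Lat, the genes of the missing adaptors, were well above background on every array. Whether these sequences lie in the deleted parts is not known here, so they do not check the genotype.

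A microRNA guides the silencing complex to messenger RNAs that pair with its seed, the bases near its 5′ end, and the target is then translated less and often degraded. A sponge offers decoy sites, so that natural targets can be relieved. miR-26a and miR-26b are separate genes of a single family. Their mature forms, from RefSeq (GRCm38.p6), are shown because both constructs act through them, with the seed (bases 2 to 8) in capitals.
mmu-miR-26a-5p: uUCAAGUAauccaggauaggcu
mmu-miR-26b-5p: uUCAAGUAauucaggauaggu
The seeds are identical, and over the 21 bases compared the pair differs at 2 positions. miR-26a is encoded at chr9:119031811-119031832 and chr10:126995543-126995564 and miR-26b at chr1:74394324-74394344, all on the plus strand.

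The array carries 6 sequences of 60 bases for the 5 genes: 1 each for Skp2, Diras2, Rnf149 and Ogfrl1, and 2 for B4galt4. By the array's own design (mm9), the Skp2 sequence lies at chr15:9042088-9042147, that of Diras2 at chr13:52599744-52599802, that of Rnf149 at chr1:39608162-39608221 and that of Ogfrl1 at chr1:23373523-23373582, all on the minus strand. The B4galt4 sequence on the study's lists lies at chr16:38768778-38768837 on the plus strand, and the second starts upstream of it at chr16:38768336-38768395, with 382 bases between them. An annotation of this build was not used here, so exon or UTR positions are not given. The Skp2 sequence and the second B4galt4 sequence hold a stop codon in all 3 forward reading frames. The Skp2 sequence is annotated as transcript variant 2, and whether it also reads other transcripts of the gene was not checked.

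A search of these sequences for the word that pairs with the miR-26 seed, TACTTGA, found it only in the second B4galt4 sequence. There it is followed by A, the full site of 8 bases. A window of 30 bases around the site, chr16:38768359-38768388, plus strand, is printed as the only place where the array itself touches a miR-26 site of these genes, with the site in capitals.
B4galt4: tgtaacacacgTACTTGAAggactaaagat
Of all 55681 array sequences, 0.431% hold TACTTGA and 0.174% hold TACTTGAA, on the transcript strand. A match is a description of the letters and no proof of a site, and the other 5 sequences cover only a short stretch of each transcript.

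Skp2 is the F-box subunit of an SCF ubiquitin ligase, the part that recognises substrates such as the cell cycle inhibitor p27 and, in dividing lymphocytes, the recombinase subunit RAG2. Its normalised signal, the background-subtracted fluorescence after quantile normalisation, on a linear scale, was 2671 and 2565 on the control arrays of experiments 1 and 2, 894 and 976 with miR-26a, and 3358 and 3059 with the sponge. The 3 groups did not overlap. The log2 change with miR-26a was -1.58 and -1.39 in the 2 experiments, a mean of -1.49 ± 0.13 (SD, n = 2) or 64.3% lower signal, the largest decrease of the 5 genes. With the sponge the log2 change was 0.33 and 0.25, a mean of 0.29 ± 0.05 (SD, n = 2) or 22.4% higher, the smallest of the 5 increases. Counted from the largest decrease, Skp2 took rank 36 of 20168 tested sequences with miR-26a, and counted from the largest increase, rank 637 with the sponge.

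Diras2 encodes a small GTPase of the Ras family, of the Di-Ras branch that is best known from brain. Its signal was 999 and 1086 in control cells, 406 and 380 with miR-26a, and 1236 and 1395 with the sponge. Again no array of one group fell within the range of another. The mean log2 change was -1.41 ± 0.15 (SD, n = 2) with miR-26a, 62.3% lower, and 0.33 ± 0.04 (SD, n = 2) with the sponge, 26.1% higher. Skp2 and Diras2 thus had similar sizes of change in both directions, and their log2 signals over the 6 arrays had a Pearson r of 0.99.

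B4galt4 encodes a galactosyltransferase of the Golgi that adds galactose in beta-1,4 linkage to N-acetylglucosamine on glycans. Its listed sequence read 168 and 98.6 in control cells, 107 and 59.8 with miR-26a, and 246 and 134 with the sponge. Experiment 1 was higher than experiment 2 in every group, with an SD of 0.54 to 0.62 on the log2 scale between the 2 arrays of a group. Without regard to experiment, the miR-26a and control ranges overlapped, and so did those of the sponge and control. Within each experiment the order was the same. The log2 change was -0.64 and -0.72 with miR-26a, a mean of -0.68 ± 0.05 (SD, n = 2), and 0.55 and 0.44 with the sponge, a mean of 0.50 ± 0.08 (SD, n = 2). When the background was corrected by normexp (offset 50), the means were -0.40 and 0.36. Without that correction, this 41.0% increase was the largest of the 5 genes with the sponge and took rank 88 of all tested sequences.

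The second B4galt4 sequence, which was not on the study's lists, was dim. It was well above background on all 6 arrays, but its signal exceeded the minimum of 50 on 1 array only, so it was not among the tested sequences. It read 45.9 and 28.7 in control cells, 31.2 and 15.1 with miR-26a, and 60.3 and 32.4 with the sponge. As for the listed sequence, experiment 1 was the higher in every group, and the control range overlapped both others. Its log2 change was -0.56 and -0.92 with miR-26a (mean -0.74 ± 0.26, SD, n = 2) and 0.39 and 0.18 with the sponge (mean 0.29 ± 0.16, SD, n = 2). Under normexp the means were -0.22 and 0.17, and the sponge change was 0.14 without control replicate 1 and 0.43 without control replicate 2. Both sequences read the same RNA samples, so the second is a further reading of the transcript and no further replicate.

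Rnf149 encodes a membrane-anchored RING finger ubiquitin ligase with a protease-associated domain. Its signal was 1117 and 909 in control cells, 778 and 666 with miR-26a, and 1536 and 1148 with the sponge. The ranges did not overlap, though the sponge array of experiment 2 lay close above the control array of experiment 1. The mean log2 change was -0.49 ± 0.05 (SD, n = 2) with miR-26a, 28.6% lower, and 0.40 ± 0.09 (SD, n = 2) with the sponge, 31.8% higher.

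Ogfrl1 encodes a protein related to the opioid growth factor receptor, whose own function is little known. Its signal was 1332 and 1476 in control cells, 930 and 1088 with miR-26a, and 1683 and 1797 with the sponge. Here experiment 2 was the higher in every group, and the groups did not overlap. The mean log2 change was -0.48 ± 0.06 (SD, n = 2) with miR-26a, 28.2% lower and the smallest decrease of the 5, and 0.31 ± 0.04 (SD, n = 2) with the sponge, 24.1% higher.

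**Figure D1:**
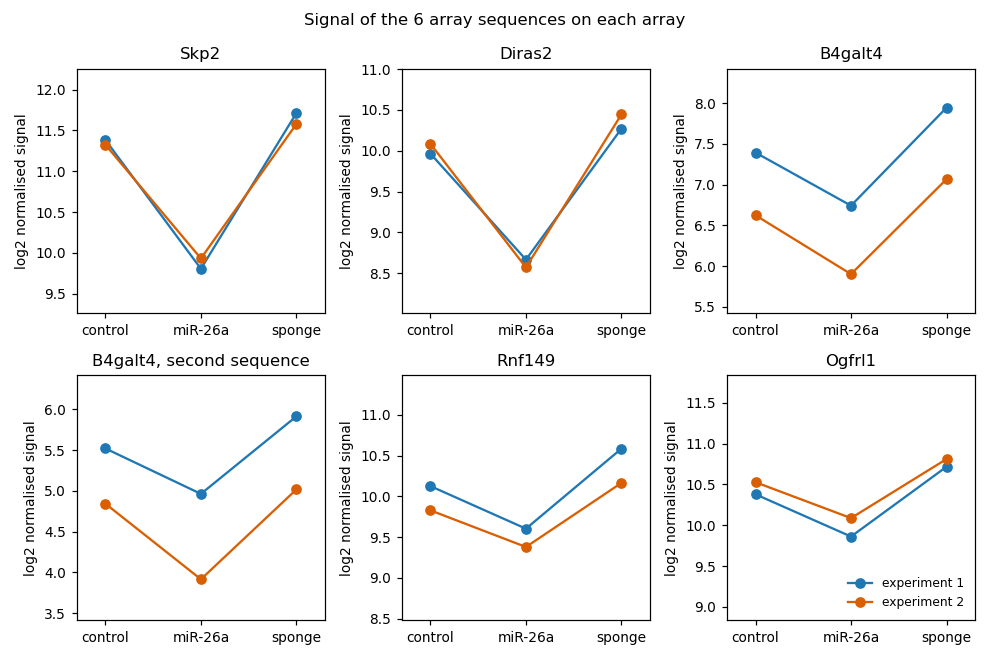
Log2 normalised signal (vertical axis, a span of 3 units in every panel) of the 6 array sequences in control, miR-26a and sponge cells, with a line for each of the 2 experiments. In every panel and both experiments miR-26a is the lowest point and the sponge the highest, and the 2 lines of B4galt4 run apart from each other.

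Set directly against miR-26a cells, sponge cells had a log2 signal higher by 1.78 ± 0.19 for Skp2, 1.74 ± 0.19 for Diras2, 1.18 ± 0.03 for B4galt4, 0.88 ± 0.14 for Rnf149 and 0.79 ± 0.09 for Ogfrl1 (SD, n = 2). This difference is the sum of both changes and involves no control array. The sponge and miR-26a ranges did not overlap for any of the 6 sequences, the dim one included. The genes were selected on both changes that make up this difference, so the separation is no separate result. The share of all tested sequences without overlap was not counted, for this difference or for the comparisons with control above. With 2 arrays a group, ranges can lie apart without a change, so these separations are a description only. For Skp2 and Diras2 the decrease with miR-26a made up most of that distance, and for Rnf149 the 2 sides were of similar size (-0.49 and 0.40).

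**Figure D2:**
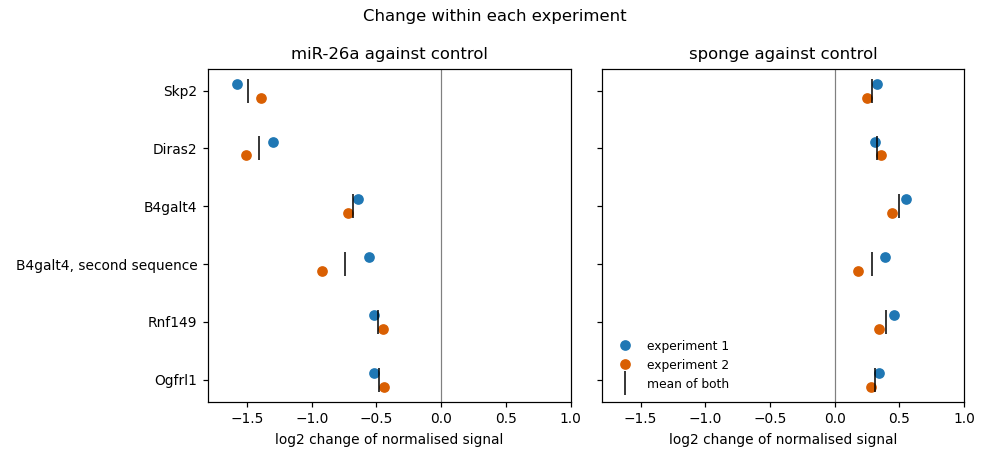
Log2 change of the normalised signal (horizontal axis) against the control array of the same experiment, with points for experiments 1 and 2 and a bar at their mean. All miR-26a changes lie below 0 and all sponge changes above it, and the decreases range from -0.48 for Ogfrl1 to -1.49 for Skp2.

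Over the 5 listed sequences the median log2 change was -0.68 with miR-26a and 0.33 with the sponge, beside medians of 0.01 and 0.0048 over all 20168 tested sequences. The 5th and 95th percentiles of all tested sequences were -0.41 and 0.37 with miR-26a and -0.29 and 0.25 with the sponge, and the 5 genes lay below the former range and above the latter. A mean decrease of at least 1.2-fold in the same direction in both experiments was met by 9.88% of tested sequences with miR-26a, and the matching increase with the sponge by 4.43%. The 5 genes met both because the study chose them by such limits. In limma, across all tested sequences, 1036 (5.14%) fell and 908 (4.5%) rose in miR-26a cells past an adjusted p of 0.05. With the sponge, 0 (0%) were lower and 2 (0.00992%) higher, against 1759 and 1488 at an unadjusted p under 0.05. Spots of the same sequence on an array, for 192 to 198 sequences printed at least 3 times, had a median coefficient of variation of 3.95% to 4.62%, and each of the 6 sequences was printed once.

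**Figure D3:**
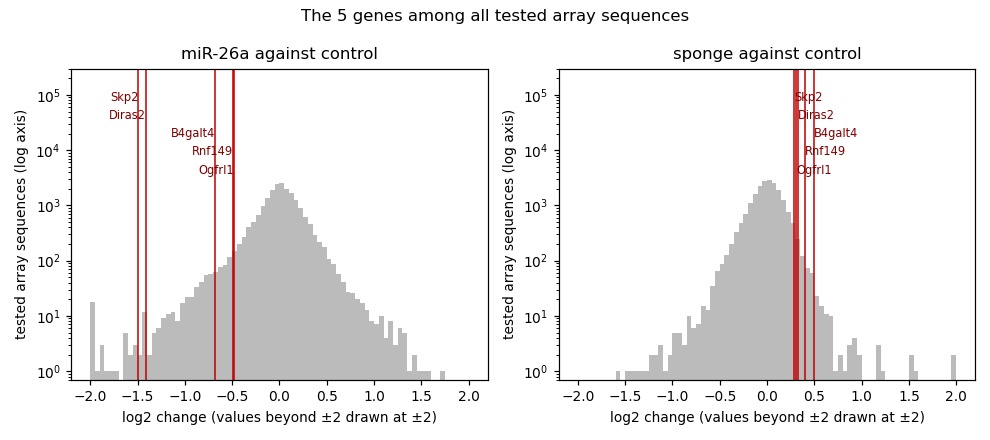
Number of tested array sequences (vertical log axis) by log2 change (horizontal axis) with miR-26a on the left and with the sponge on the right, with lines at the 5 genes. Skp2 and Diras2 stand far out in the left tail with miR-26a. With the sponge all 5 lie above the 95th percentile of 0.25, from 0.29 to 0.50.

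The study's 2 lists shared 14 genes, and the other 9 lacked a predicted site in both. Some of those reported here stood in both lists through the same array sequence. On the log2 scale, B230118H07Rik changed by -2.24 with miR-26a and 0.36 with the sponge, and Fam70a by -1.93 and 0.29. Vat1l changed by -0.99 and 0.31, Igsf9 by -0.98 and 0.34, and Nkd2 by -0.81 and 0.42. Vat1l was too dim to be tested. By these values Fam70a and B230118H07Rik exceeded Skp2 in the decrease, and none of these 5 exceeded B4galt4 in the increase. The miR-26a signals behind these decreases were low, at 67.9 and 52.4 for Fam70a and 26.7 and 36.4 for B230118H07Rik. Whether their order against Skp2 holds under normexp was not tested. Bst1, H3f3b and Ppih stood in the lists through different sequences. For H3f3b, the sequence with a decrease of -0.66 with miR-26a changed by 0.10 with the sponge, and the sequence with 0.29 with the sponge changed by -0.21 with miR-26a.

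These genes also show where the limit fell. Just inside it with the sponge were Fam70a at 21.9%, Skp2 at 22.4% and the H3f3b sequence of the sponge list at 22.7% higher signal. Ogfrl1 and Vat1l followed, both at 24.1%. At its edge was Bst1, whose 2 sequences were 19.9% and 18.4% higher with the sponge by the values used here. The 2 Ppih sequences were 19.8% and 17.9% higher with the sponge. With miR-26a the former changed by 0.06 on the log2 scale, and the latter was 19.8% lower, at the edge of that limit. Of the 5 genes, none lay within 5 percentage points of the limit with miR-26a, where the smallest decrease was 28.2%.

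Among the 5 genes, Pearson r of the log2 signals over the 6 arrays ranged from 0.58 for B4galt4 with Ogfrl1 to 0.99 for Skp2 with Diras2. The B4galt4 and Ogfrl1 shifts between experiments ran in opposite directions. Because all 5 were chosen for the same order of groups, this likeness is a description. Of 15196 named sequences of other genes, 67 had an r over 0.99 with Skp2, 45 with Diras2, 15 with B4galt4, 12 with Rnf149 and 6 with Ogfrl1. Closest to Skp2 were Tuba1a (alpha-tubulin, r = 0.9997), Bst1 (an ectoenzyme of lymphocyte and stromal cell surfaces, r = 0.9997) and Kpna2 (an importin, r = 0.9981). Closest to Diras2 were Ypel1 (r = 0.9992), Purg (r = 0.9986) and Atg12 (an autophagy factor, r = 0.9971). B4galt4 was nearest to Usp6nl (r = 0.9971), Tsr2 (r = 0.9956) and Alpl (alkaline phosphatase, r = 0.9951), Rnf149 to Gnpnat1 (an enzyme of UDP-N-acetylglucosamine synthesis, r = 0.9977), Ggps1 and Eif3m (both r = 0.9944), and Ogfrl1 to Cth (r = 0.9957), Prpf8 (r = 0.9934) and Ctps2 (r = 0.9920). A high r says nothing of size: Cth changed by -0.09 and 0.05 on the log2 scale with miR-26a and the sponge, far less than Ogfrl1, while Tuba1a changed by -1.17 and 0.22. The 6 points share arrays, slide and experiments.

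The partners of Skp2 in its ligase mostly did not pass the test. Of 11 core subunits and cofactors of the SCF ligase, all tested, 1 was lower and 0 higher with miR-26a in limma (adjusted p under 0.05 over all sequences), and the median log2 change was 0.06. At an unadjusted p under 0.05 there were 2. By the adjusted limit, 5.14% of all tested sequences were lower and 4.5% higher. The log2 changes with miR-26a were 0.09 ± 0.08 (SE, adjusted p = 0.533) for the adaptor Skp1a, 0.18 ± 0.07 (adjusted p = 0.205) for the scaffold Cul1, 0.06 ± 0.07 (adjusted p = 0.593) for the RING subunit Rbx1 and 0.08 ± 0.07 (adjusted p = 0.556) for Cks1b, the cofactor that helps Skp2 bind p27. The exception was Cks2, a relative of Cks1b, which fell by 0.42 (SE 0.07, adjusted p = 0.0238 in limma). With the sponge the 11 genes ranged from -0.14 to 0.20, and 0 passed, also at an unadjusted p.

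Substrates of Skp2 are controlled mainly at the protein level, which the arrays do not read. Of 9 tested substrate genes, 2 were lower with miR-26a and 0 higher by limma, with a median log2 change of 0.09. Over all tested sequences these shares were 5.14% and 4.5%. At an unadjusted p under 0.05 there were 7 substrate genes. Of these, Cdt1 (0.30), Cdkn1a (0.25), Rbl2 (0.20) and Orc1 (0.17) were higher, and Rag2, Ccne1 and Cdkn1b lower. Rag2, which with Rag1 cuts antigen receptor genes, read 664 and 652 in control cells, 66.0 and 62.2 with miR-26a, and 641 and 775 with the sponge. It fell by 3.36 on the log2 scale with miR-26a (SE 0.10, limma adjusted p = 0.00105), and its change with the sponge was 0.10 ± 0.10 (SE, adjusted p = 0.661). The miR-26a signals of Rag2 were near the minimum of 50, and under normexp its change with miR-26a was -2.56. Ccne1 (cyclin E1) fell by 0.60 (SE 0.07, limma adjusted p = 0.012), and the other tested sequence of the gene changed by -0.39 (adjusted p = 0.0874). Cdkn1b, the gene of p27, changed by -0.29 ± 0.09 (SE, limma adjusted p = 0.121) with miR-26a and by -0.19 ± 0.09 (adjusted p = 0.386) with the sponge, and its other tested sequence by -0.24 and -0.21. With the sponge 0 of the 9 passed, also at an unadjusted p.

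Of 34 other Ras family genes on the array, 16 were tested, and Diras1, the nearest relative of Diras2, was not: it was above background on all 6 arrays but reached a signal of only 36.1. With miR-26a, 2 of the 16 were lower and 1 higher by limma, beside 5.14% and 4.5% of all tested sequences. At an unadjusted p under 0.05 there were 5 of the 16. Rasl10a fell by 1.61 on the log2 scale (SE 0.10, adjusted p = 0.00317), with signals of 336 and 413 in control cells, 98.5 and 151 with miR-26a and 262 and 386 with the sponge. Under normexp the Rasl10a change with miR-26a was -1.12. The Rasl10a signal was lower with the sponge than with the control in both experiments, at -0.23 ± 0.10 (SE, limma adjusted p = 0.331). Rap2b fell by 0.38 (adjusted p = 0.0292 in limma) and Rras rose by 0.34 (adjusted p = 0.0471). With the sponge 0 of the 16 passed, and 1, Nkiras1, had an unadjusted p under 0.05, at a log2 change of 0.18.

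Of the enzymes that act on galactose and N-acetyllactosamine chains beside B4galt4, 7 of 16 on the array were tested. With miR-26a, 3 were lower and 0 higher by limma, beside 5.14% and 4.5% of all tested sequences. The median log2 change of the 7 was -0.17, and 4 had an unadjusted p under 0.05. B4galt1, the main galactosyltransferase of the family, read 3452 and 3598 in control cells, 1604 and 1495 with miR-26a, and 3484 and 3835 with the sponge. It fell by 1.19 (SE 0.08, limma adjusted p = 0.00441), and its second sequence fell by 0.82 (adjusted p = 0.00834). B3gnt5 and B3gnt2, which add the N-acetylglucosamine on which the galactosyltransferases build, fell by 0.98 (SE 0.12, limma adjusted p = 0.0117) and by 0.44 (SE 0.07, limma adjusted p = 0.0214). Under normexp the changes were -0.79 for B3gnt5 and -0.43 for B3gnt2. With the sponge, where B4galt4 was 41.0% higher, B4galt1 changed by 0.05 ± 0.08 (SE, limma adjusted p = 0.779), and 0 of the 7 passed, also at an unadjusted p.

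Of the ubiquitin ligases built like Rnf149, 4 of 11 were tested. Rnf130 fell by 0.44 with miR-26a (SE 0.07, limma adjusted p = 0.021), and the brightest sequences of Rnf13, Rnf167 and Rnf215 did not pass, with log2 changes from -0.11 to 0.0022. The other tested sequence of Rnf13 changed by 0.47 with miR-26a (limma adjusted p = 0.0579) and by 0.34 with the sponge (adjusted p = 0.261). Ogfr, the receptor after which Ogfrl1 is named, changed by 0.03 with miR-26a (limma adjusted p = 0.815) and by 0.03 with the sponge (adjusted p = 0.858). Its ligand gene Penk was at background on all arrays. Over all lists, 9 of 48 tested genes were lower and 1 higher with miR-26a, and 0 passed with the sponge. Of all tested sequences, 5.14% were lower and 4.5% higher with miR-26a. The lists were chosen with earlier results of these data known, so the shares were not compared by a test. Of the 10 calls, those of Rag2, Rasl10a and B4galt1 were the only ones kept when control replicate 1 or control replicate 2 was left out. Without the experiment as a block in the fit, Rag2, Ccne1 and B4galt1 kept theirs.

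**Figure D4:**
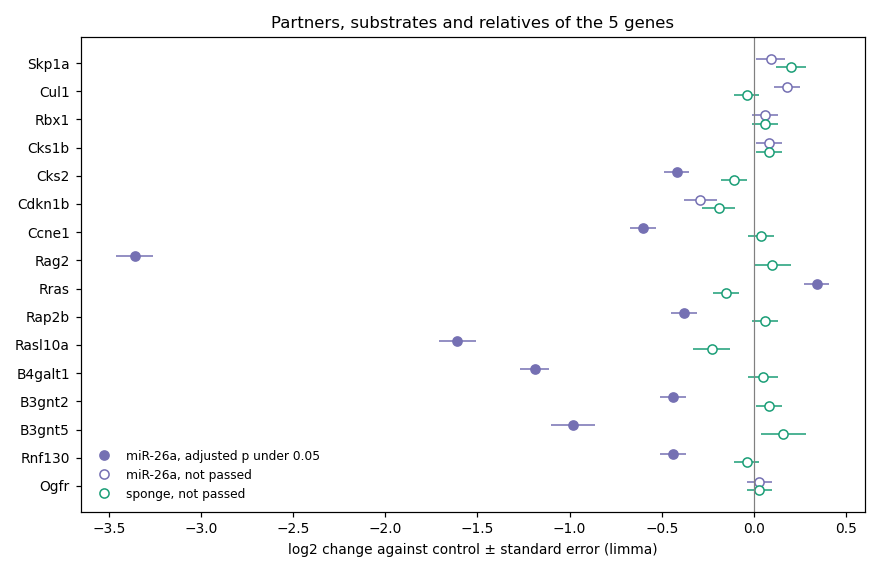
Log2 change against control (horizontal axis) with its standard error from limma for genes related to the 5, in miR-26a cells and sponge cells. Filled points have an adjusted p under 0.05 over all tested sequences: 10 with miR-26a, from -3.36 for Rag2 to 0.34 for Rras, and 0 with the sponge.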

How the data were processed

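Each of 6 arrays (Agilent SurePrint mouse design, mm9) held 59305 spots of 55681 sequences. Per the file headers and the submitters' processing notes, Agilent Feature Extraction 10.7.1.1 gave a background-subtracted intensity per spot, and the authors deposited these scanner files and a table of quantile-normalised intensities on the linear scale. The processed intensities were quantile-normalised, converted to log2 and averaged over unflagged spots. Sequences well above background on at least 1 array with a processed signal over 50 on at least 4 arrays, 20168 in all, were tested in limma 3.58.1 (R 4.3.3) with the 3 groups and the experiment as a block, adjusted by Benjamini-Hochberg. The methods normalise within each experiment, and same-numbered arrays deviated together (correlations of 0.379, 0.588 and 0.454). Signals were printed as normalised linear values, and changes as means of within-experiment differences. A related gene was represented by its brightest tested sequence. The text names every sequence of the 5 genes, the other 9 genes of both study lists except 1 that is not reported here, related genes with a call or set by name, and the 3 nearest genes by r for each. The fit was tested on simulated data. The 5 genes and all lists were chosen with earlier results of these data known. Figures used Python 3.11.15 and matplotlib 3.10.9. Only 2 arrays per group limit the precision.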

Additional observations from a re-analysis of the deposited data

How the results depend on the processing

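Over 12 alternatives the 6 sequences of the 5 genes kept their direction in both comparisons, and 129 of 144 values moved by less than the SD between experiments. Many of the 144 could not move. Dropping the block, changing the filter or leaving out an array of the third group does not alter a mean change. All 15 that moved came from scaling, normexp or leaving out an array of the compared groups. The median log2 change of the 5 genes with miR-26a became -0.47 under normexp background correction and lay between -0.73 and -0.63 when an array was left out. With the sponge it was 0.37 under scaling to the 75th percentile, 0.33 under normexp, and 0.32 to 0.38 when an array was left out. Under normexp the B4galt4 changes with miR-26a shrank to -0.40 and, for the dim sequence, -0.22. Counts of calls depended more on the settings. Without the replicate block, 238 sequences were lower and 73 higher with miR-26a. With sequences well above background on all 6 arrays, 387 were lower and 194 higher with miR-26a, and 0 higher with the sponge (1445 at an unadjusted p under 0.05). With no filter, limma called 0 lower and 0 higher with miR-26a (3170 and 3344 unadjusted) and 0 higher with the sponge (2021 unadjusted). Leaving out an array gave 75 to 916 lower and 29 to 683 higher with miR-26a, the lowest without control replicate 1 and next without control replicate 2 (98 and 35), and 0 to 22 lower and 0 to 13 higher with the sponge, the highest without either miR-26a array. Scaling called 1 lower with the sponge, and normexp 26 lower and 10 higher. Among the related genes, only the 10 called with miR-26a had a call to lose. Of these 10, 3 kept it without the replicate block, 5 with sequences well above background on all 6 arrays and 0 with no filter. All 10 kept it under scaling, normexp and the authors' processed values. Small uncalled changes turned sign. Ogfr with miR-26a ranged from -0.0047 to 0.07 when an array was left out, the former without miR-26a replicate 2. With the sponge, Cul1 changed by 0.0006 and Rnf130 by 0.03 under scaling, and when an array was left out Cul1 ranged from -0.11 to 0.03 (the latter without control replicate 1), Ccne1 from -0.03 (without sponge replicate 1) to 0.12, with -0.01 without control replicate 1, and, both negative only without sponge replicate 2, Rag2 from -0.06 to 0.26 and B4galt1 from -0.03 to 0.13. The causes were not tested.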
